A study of Drosophila melanogaster with 2 samples.

Results

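Mediator and Integrator subunit genes were taken as the protein-coding genes of Drosophila melanogaster whose symbol is MED or IntS followed by a number. This rule found 36 of 13945 protein-coding genes, 25 for Mediator and 11 for Integrator. The study mapped DNA that came down with CG2129, a zinc finger protein, by chromatin immunoprecipitation and sequencing (ChIP-seq). Whole embryos aged 0 to 4 h came from transgenic flies that make CG2129 fused to enhanced green fluorescent protein, written CG2129-eGFP, and the antibody was raised against GFP. There was 1 group, with 2 biological replicates, so sites are compared with each other and not between conditions. Both replicates carry the tagged transgene, and the control experiment named in the labels was not analysed here, so nonspecific recovery is not known.

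Mediator carries signals from DNA-bound activators to RNA polymerase II. Its head and middle modules contact the polymerase, its tail module is contacted by many activators, and a separable kinase module restrains it. Integrator is an RNA endonuclease that trims the 3′ ends of small nuclear RNAs (snRNAs) and cuts nascent RNA from polymerase paused near promoters, and it also brings the phosphatase PP2A to that polymerase. Both complexes serve a large part of the genes that an embryo transcribes.

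A gene is called bound here when the summit of a peak in the pooled thresholded list lay within 500 bp of one of its transcription start sites (TSSs). That list holds 2067 peaks that passed an irreproducible discovery rate (IDR) of 0.01, a measure of how well peak rankings repeat. Signal is the authors' value for a peak and its scale is not stated, so it is read as an order of peaks within a list. Signals in the pooled list ran from 6.02 to 511 with a median of 77.6. Replicate 1 alone had 1681 thresholded peaks and replicate 2 alone had 1347. How deeply the libraries were sequenced is not stated.

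CG2129-eGFP was found at the starts of 7 Mediator genes, MED7, MED27, MED25, MED28, MED8, MED9 and MED14. It was found at 3 Integrator genes, IntS4, IntS8 and IntS10. The bound share was 28% of Mediator genes (95% exact Clopper-Pearson interval 12.1 to 49.4) and 27.3% of Integrator genes (6.02 to 61.0), against 17.3% of all protein-coding genes. The complexes differed by 0.73 percentage points, with a 95% Newcombe interval from -31.6 to 27. That interval is wide and includes differences in either direction, so with this many genes the direction is not settled. Taken as 1 set the members stood at 27.8% (14.2 to 45.2), an interval that includes the share of all genes. These intervals cover counting error only, and no test was run over the members.

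Sequence beside the summits is shown first for bound Mediator genes, because most of it holds the letters TATCGAT, part of the DNA replication-related element (DRE). The DRE is read in flies by the factor DREF, and the related letters CGATA by the insulator protein BEAF-32. Each line is from the NCBI copy of Release 6 (dm6), on the strand of the named gene, within 100 bp of the summit and outside exons of protein-coding genes. Capitals mark TATCGAT on either strand. The palindrome TATCGATA holds it once on each strand, so the matches overlap. The MED7 stretch lies at chr3R:10761033-10761223 (minus strand). It reaches into an exon of the noncoding asRNA:CR45016, but the MED7 summit itself lies in no annotated gene. The MED27 stretch is chr3R:5654892-5655092, the MED25 stretch chr3R:20008789-20008946, the MED28 stretch chr3R:25476916-25477002 and the MED14 stretch chr3L:593068-593245 (plus strand).
MED7: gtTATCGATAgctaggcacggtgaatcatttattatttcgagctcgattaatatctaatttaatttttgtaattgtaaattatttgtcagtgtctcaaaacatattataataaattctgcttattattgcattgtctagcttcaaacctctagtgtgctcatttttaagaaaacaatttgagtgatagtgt
MED27: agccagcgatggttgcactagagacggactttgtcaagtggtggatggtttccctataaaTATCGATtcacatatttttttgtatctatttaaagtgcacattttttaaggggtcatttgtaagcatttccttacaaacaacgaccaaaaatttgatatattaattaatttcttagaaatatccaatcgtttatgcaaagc
MED25: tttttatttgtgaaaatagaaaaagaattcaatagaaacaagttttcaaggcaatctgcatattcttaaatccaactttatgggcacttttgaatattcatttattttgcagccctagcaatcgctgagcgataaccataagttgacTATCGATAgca
MED28: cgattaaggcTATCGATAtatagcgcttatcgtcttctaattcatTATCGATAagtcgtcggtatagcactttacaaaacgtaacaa
MED14: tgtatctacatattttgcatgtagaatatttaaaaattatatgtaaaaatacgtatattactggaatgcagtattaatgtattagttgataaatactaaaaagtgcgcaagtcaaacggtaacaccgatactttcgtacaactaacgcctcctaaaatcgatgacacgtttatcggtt

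The MED28 stretch holds 2 palindromes, the nearer centred 15.5 bp from the summit. At MED25 the palindrome sits 50.5 bp from the summit and at MED7 94.5 bp from it. MED8 and MED9 are not printed, and their palindromes sit 31.5 and 42.5 bp from the summits. MED27 has the shorter TATCGAT, 37 bp from the summit, without the last base of the palindrome. MED14 has no match to TATCGAT in this window, although the letters CGATA occur in its printed stretch.

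For Integrator, the IntS10 stretch chr3L:3806460-3806658 (plus strand) holds a TATCGAT 87 bp from the summit. The IntS4 summit falls in the 3′ UTR of the neighbouring gene CG12112, so the match alone is shown with 10 bases on each side, at chrX:8559004-8559030 (minus strand). It is centred 82 bp from the summit. IntS8, which was bound too, holds the palindrome 24.5 bp from its summit and is not printed. IntS12 had the strongest Integrator summit below the threshold and is shown from chr3R:26863167-26863367 (plus strand) as an example with no match.
IntS10: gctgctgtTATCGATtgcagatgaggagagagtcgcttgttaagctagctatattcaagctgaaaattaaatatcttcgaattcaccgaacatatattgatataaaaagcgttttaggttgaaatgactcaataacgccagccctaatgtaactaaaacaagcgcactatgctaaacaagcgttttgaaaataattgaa
IntS4 site: ttcactatacTATCGATgtttcacgcc
IntS12: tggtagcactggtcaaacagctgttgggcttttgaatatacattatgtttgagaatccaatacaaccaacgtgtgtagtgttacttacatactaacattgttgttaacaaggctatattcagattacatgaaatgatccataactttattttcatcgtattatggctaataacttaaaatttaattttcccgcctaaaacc

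Members are ordered by module, as assigned here by hand from general knowledge of the complexes. In the middle module of Mediator, MED7 and MED9 were bound, or 2 of 8 genes, against 17.3% of all protein-coding genes, the share to set beside each module's count. With so few genes a module's share has a wide interval, 9.90% to 81.6% for the tail. MED7, a subunit that pairs with MED21 in a long hinge, had a pooled signal of 309, rank 21 of the thresholded peaks. In replicate 1 its signal was 159 and in replicate 2 it was 154, at ranks 42 and 10 of the thresholded lists. MED7 was thus among the strongest sites in the pooled list and in both replicates. Its peak spans chr3R:10760954-10761289 and the summit lies 91 bp upstream of the MED7 start. The same peak lies between MED7 and Cap-H2, a condensin II subunit gene on the other strand whose start is 278 bp away, and the summit was nearer to MED7.

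MED9 had a pooled signal of 51.5 at rank 1510. The summit was 86 bp upstream of MED9, but 29 bp from Nup75, a nucleoporin gene, and CG42518 shares it as well. The strongest summit near MED9 had 37.2 in replicate 1, where it passed the threshold, and 16.6 in the ranked list of replicate 2, where it did not. Those summits lay 154 bp apart, and the one of replicate 1 was more than 100 bp from the pooled summit. MED9 was therefore a weaker site whose position differed between replicates.

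In the tail module, with MED14 counted in it, 3 of 7 genes were bound, MED27, MED25 and MED14. MED27 had a pooled signal of 244 at rank 62, with 131 in replicate 1 and 109 in replicate 2. Its ranks in the replicates' thresholded lists were 89 and 56, and its summit, 147 bp upstream, is 131 bp from the divergent gene elm. MED27 was high in both replicates, as MED7 was. MED25, which viral and cellular activators contact in mammals, had a pooled signal of 99.9 at rank 722. Its strongest summits had 54.4 in replicate 1 and 50.8 in replicate 2, but these lay 168 bp apart. Replicate 2 matched the pooled summit to within 5 bp, where replicate 1 had a ranked summit of 27.01 that did not pass its threshold. The pooled summit was 58 bp upstream, and the same peak lies within 500 bp of Hs6st, a heparan sulphate sulphotransferase gene.

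MED14, which also runs as a backbone through the head and middle modules, had the lowest pooled signal of the bound members, 42.3 at rank 1709. In the ranked lists of the replicates it stood at 22.4 in replicate 1 and 15.9 in replicate 2, and in neither did it pass the threshold. Its −log10 IDR was 2.04 in the pooled ranked list that holds every thresholded peak and 1.87 in the other pooled ranked list. MED14 is absent from the authors' conservative list. It was the bound Mediator gene with no other protein-coding gene at its peak.

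In the head module 2 of 10 genes were bound, MED28 and MED8. MED28 had a pooled signal of 86.0 at rank 915, with 60.9 in replicate 1 and 23.0 in replicate 2. It passed the threshold in each replicate, although the signal ranked 658 in replicate 1 and 1201 in replicate 2. Its summit lies 54 bp upstream of MED28 and 34 bp from the divergent CG4553.

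MED8 had a pooled signal of 77.2 at rank 1042. Replicate 1 had a signal of 34.7 there and passed the threshold, 14 bp from the pooled summit. Replicate 2 had no ranked summit within 100 bp of it, and its strongest one near MED8, at 30.1, was another site at 69 bp from the MED8 start, 552 bp from that of replicate 1. Of the replicates' own lists, only those of replicate 1 thus held the pooled site. The pooled peak is also in the conservative list, at rank 1036, with a −log10 IDR of 3.28 in the main pooled ranked list and 3.13 in the other. What replicate 2 gave to the pooled peak is not known. The pooled summit is 497 bp upstream of MED8, just inside the window, and 33 bp from the start of CG8929. Within 200 bp MED8 is not bound.

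In Integrator, the cleavage module had 1 bound gene of 3, IntS4, which holds the nuclease pair IntS9 and IntS11. IntS4 had a pooled signal of 169 at rank 224, with 99.6 in replicate 1 and 62.8 in replicate 2. The summit lies 154 bp upstream of IntS4 and no other protein-coding TSS is in range. IntS11, the nuclease itself, had a ranked summit of 29.1 below the threshold, and IntS9, its inactive partner, had 15.8.

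Of the phosphatase module, IntS8 was bound and IntS6 was not, both being subunits that contact PP2A. IntS8 had a pooled signal of 156 at rank 274, with 84.0 in replicate 1 and 65.1 in replicate 2, and its summit lies 44 bp upstream with no other protein-coding TSS in range. IntS6 had a ranked signal of 23.0. IntS8 and IntS4 lay close to each other in all 3 lists and above every bound Mediator gene except MED7 and MED27.

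IntS10, which forms an arm with IntS13 and IntS14 in the human complex, had a pooled signal of 73.6 at rank 1091. It had 47.4 in replicate 1 and 35.2 in replicate 2, at ranks 960 and 934. The summit is 152 bp upstream of IntS10 and 99 bp from both CG32264 and ntc, an F-box gene. IntS14 had a ranked signal of 23.5. IntS1 and IntS2, the large backbone subunits, were not bound, nor were IntS3 and IntS12.

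**Figure D1:**
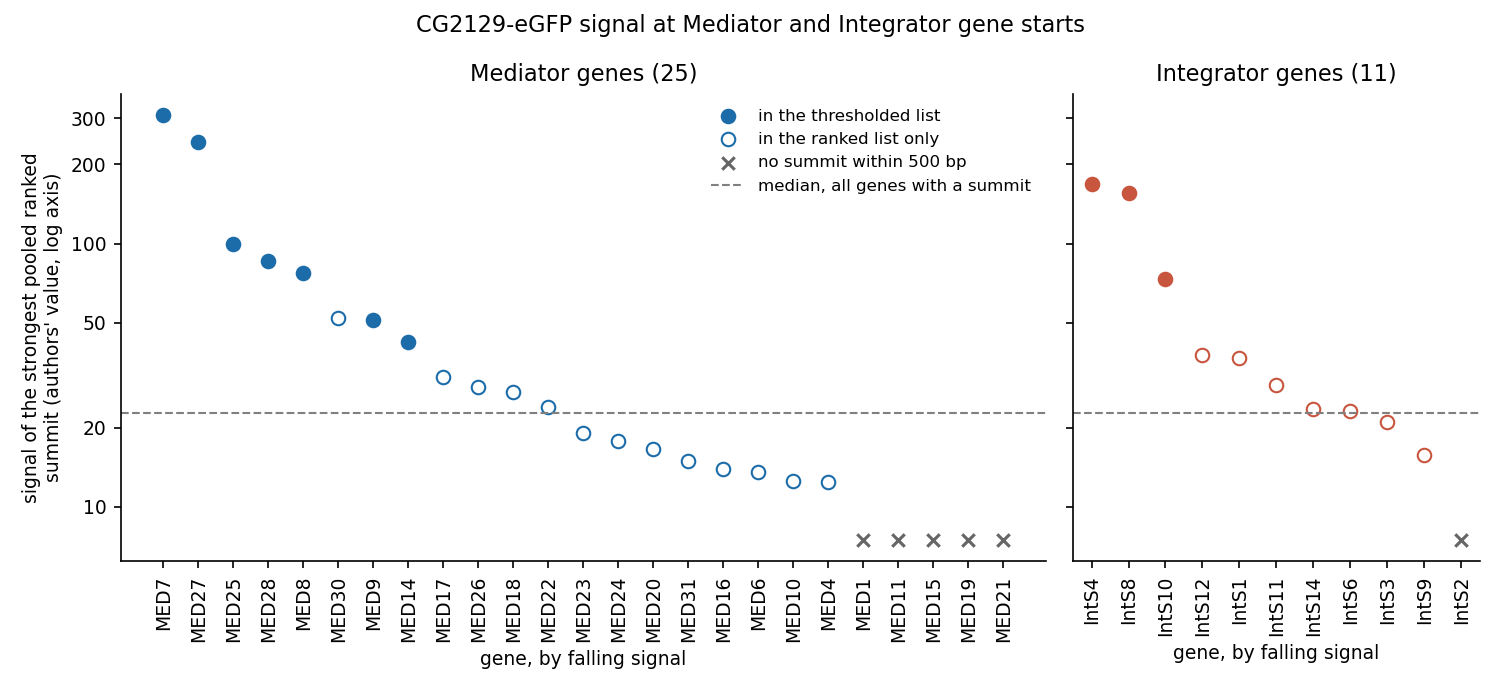
Signal of the strongest summit within 500 bp of a TSS in the pooled ranked list (log axis, authors' value) for each Mediator gene and each Integrator gene, ordered by signal. Filled points are in the thresholded list, open points are not, crosses mark members with no summit in the pooled ranked list, and the dashed line is the median of 22.8 over all protein-coding genes with a summit. MED7 and MED27 lie at 309 and 244, above IntS4 and IntS8 at 169 and 156.

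The pooled ranked list holds 47947 peaks, most of them far below the threshold. There, 20 of 25 Mediator genes (80.0%) and 10 of 11 Integrator genes (90.9%) had a summit at a TSS, against 60.9% of all protein-coding genes. The median signal of those members was 27.9 for Mediator (12.4 to 309) and 33.0 for Integrator (15.8 to 169), against 22.8 over all genes with a summit. With members that have no summit counted as 0, the medians were 19.1 for Mediator, 29.1 for Integrator and 12.6 for all genes. Among members not bound, the median was 17.8 in Mediator (13 with a summit of 18) and 23.5 in Integrator (7 of 8), against 17.7 over all genes not bound that had a summit. The Mediator value is that of MED24. MED24 and IntS3 had no summit in the other pooled ranked list or in the ranked list of replicate 1.

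The strongest Mediator genes below the threshold were MED30, MED17 and MED26. MED30, a head subunit, had a pooled signal of 52.3, above that of MED9 and MED14, with 37.7 in replicate 1 and 16.5 in replicate 2. Its −log10 IDR was 0.10 in the main pooled ranked list and 2.04 in the other, and it is in the conservative list at rank 1487. So MED14 and MED30 trade places between the pooled lists, and each leaves Mediator with 7 bound genes. MED30 shares the peak with Rev1, a translesion polymerase gene.

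MED17, a large scaffold subunit of the head, had a ranked signal of 31.2, and MED26, which recruits elongation factors in mammals, had 28.6. The weakest ranked summits were those of MED6 at 13.6, MED10 at 12.6 and MED4 at 12.4. These lie close to the all-gene median of 12.6 that counts absent summits as 0. No pooled ranked summit was found at MED1, MED11, MED15, MED19 or MED21. Of these, MED11 had 14.7 and MED15 had 10.8 in the other pooled ranked list, MED19 had 8.30 in replicate 1, MED1 had 5.45 in replicate 2, and MED21 had none in any list.

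Among Integrator genes below the threshold IntS12 led with 37.7, followed by IntS1 with 36.9 and IntS11 with 29.1. IntS12, a PHD finger subunit, shares the peak with Lerp, IntS1 with Not11, a CCR4-NOT subunit gene, and IntS11 with Wdr24. The weakest were IntS6 at 23.0, IntS3 at 21 and IntS9 at 15.8. IntS2 had no summit in the main pooled ranked list and 13.7 in the other. No Integrator gene moved across the threshold between the pooled thresholded and conservative lists.

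Replicates were compared by the strongest summit that each had near a member, which was not always the same site. Across the 21 members with a summit in both replicates' ranked lists, Spearman's rho was 0.94, and it was 0.89 over 13 Mediator genes and 0.95 over 8 Integrator genes. Over 6120 protein-coding genes it was 0.79. These are correlations across genes, which share the libraries and their depth. Summits of a member in the 2 replicates lay a median of 145 bp apart, with 9 of 21 within 100 bp, against 89 bp and 53.0% within 100 bp over all genes.

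**Figure D2:**
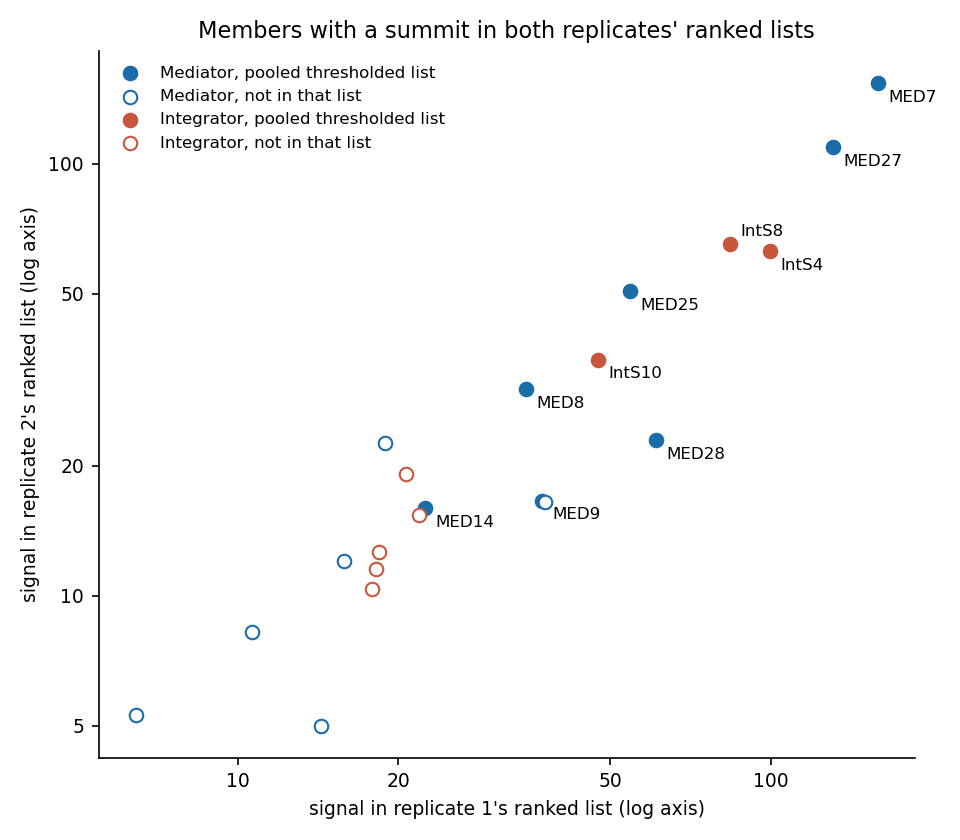
Signal in replicate 1 against signal in replicate 2 (both log axes, authors' values) for the 21 members with a summit in both ranked lists, which can be different sites, as at MED8. Filled points are bound in the pooled thresholded list and are named, with MED7 and MED27 at the upper right, while MED14 and MED9 lie among open points at lower signal.

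Support in each replicate's own thresholded list differed by gene. Of the 7 bound Mediator genes, MED7, MED27, MED25 and MED28 passed in both replicates (MED25 at different summits), MED8 and MED9 in replicate 1 alone, and MED14 in neither. The 3 bound Integrator genes passed in both. Over all bound protein-coding genes 60.9% passed in both. With both replicates' own lists required, 4 Mediator genes (16%) and 3 Integrator genes (27.3%) remained, against 10.7% of all genes. The difference was then -11.3 percentage points, so which complex had the higher share turned with this choice.

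**Figure D3:**
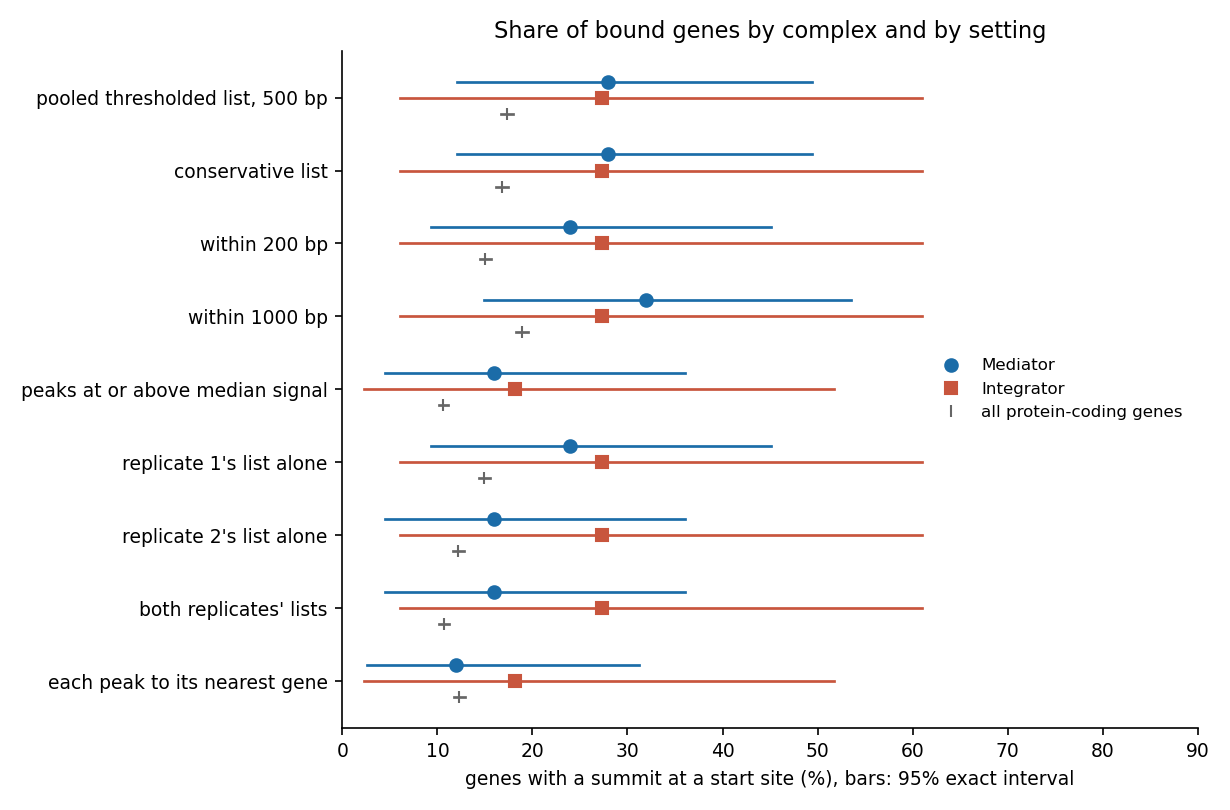
Share of Mediator genes, Integrator genes and all protein-coding genes with a summit at a TSS (percent, bars are 95% exact intervals) under the main setting and each alternative list or window. The Mediator share ranges from 12% to 32% and the Integrator share from 18.2% to 27.3%, with intervals that overlap in every row.

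All 7 bound Mediator summits and all 3 bound Integrator summits lay upstream of the member's TSS, against 84.7% of bound protein-coding genes. The median position was -86 bp for Mediator (-497 to -54) and -152 bp for Integrator (-154 to -44), with negative values upstream, against -70 bp over all bound genes. Within 200 bp, 6 Mediator genes (24%) and the same number of Integrator genes as before, 3 (27.3%), were bound, against 15% of all genes. Within 1000 bp the counts were 8 Mediator genes (32%) and 3 Integrator genes (27.3%), against 18.9%.

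Most members have a divergent neighbour, a protein-coding gene on the other strand that starts within 500 bp upstream. Such a neighbour was present at 17 of 25 Mediator genes (68.0%) and 6 of 11 Integrator genes (54.5%), against 27.4% of all protein-coding genes. Among genes with one, 6 of 17 Mediator genes (35.3%) and 1 of 6 Integrator genes (16.7%) were bound, against 37.1% of all such genes. Among genes without one, 1 of 8 Mediator genes (12.5%) and 2 of 5 Integrator genes (40.0%) were bound, against 9.88% of all such genes. The Mediator shares are thus near the background of genes with the same layout. The Integrator counts ran the other way, with few genes. The part of gene layout in the bound shares was not tested.

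Because of this layout a peak could often be given to more than 1 gene. The peak was shared with another protein-coding gene at 6 of 7 bound Mediator genes and 1 of 3 bound Integrator genes, against 62.6% of all bound genes. With each peak given to the gene with the nearest TSS, Mediator kept MED7, MED25 and MED14 (12%) and Integrator kept IntS4 and IntS8 (18.2%), against 12.3% of all genes. A peak in a shared promoter does not show which gene, if either, it concerns.

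**Figure D4:**
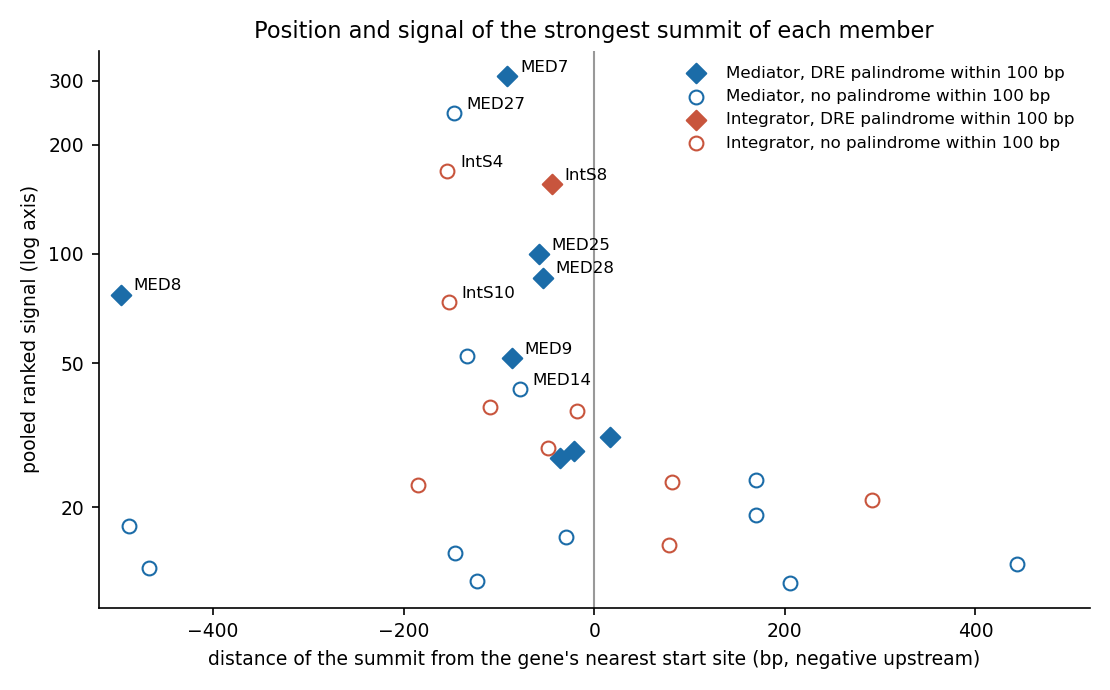
Distance of each member's strongest pooled ranked summit from its nearest TSS (bp, negative upstream) against its signal (log axis, authors' value). Filled diamonds have the DRE palindrome within 100 bp of the summit and open circles do not, and the 10 bound members, which are named, all lie left of the start site.

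The palindrome TATCGATA was found within 100 bp of the strongest ranked summit at 8 of 20 Mediator genes (40.0%, 95% exact interval 19.1 to 63.9) and 1 of 10 Integrator genes (10%, 0.253 to 44.5), against 13.5% of all protein-coding genes with such a summit. The search covered both strands, on which a palindrome reads the same. The 8 Mediator genes were MED7, MED8, MED9, MED25, MED28, MED17, MED18 and MED26, and the Integrator gene was IntS8. The window follows the summit, which at MED8, MED9 and MED28 was nearer to CG8929, Nup75 and CG4553 in that order. The share over all genes was not matched for divergent neighbours. The shorter TATCGAT, on either strand and counting the palindrome too, was found at 9 Mediator genes (45.0%) and 4 Integrator genes (40.0%), against 25% of all genes. The complexes thus stood apart for the palindrome and close together for the shorter letters, with overlapping intervals for both.

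At bound summits the palindrome was present at 5 of 7 Mediator genes and 1 of 3 Integrator genes, against 34.8% of all bound genes. TATCGAT was present at 6 of 7 and 3 of 3, against 61% of all bound genes. Of the Mediator genes with the palindrome 5 of 8 were bound, and of those with a summit but no palindrome 2 of 12 were bound. Over all protein-coding genes with a ranked summit these shares were 73.4% with the palindrome and 21.4% without it. MED17, MED18 and MED26 are the Mediator genes that hold the palindrome and were not bound, with ranked signals of 31.2, 27.3 and 28.6. In the other pooled ranked list MED26 came near the threshold, with a −log10 IDR of 1.99, against 1.17 in the main one. MED17 and MED18 had 1.13 and 0.84 in that other list.

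MED18 and MED26 are shown because the match lies as close to the summit as at bound genes, centred 25.5 bp away at MED18 and 14.5 bp away at MED26. The MED18 stretch is chrX:1865836-1865908 (plus strand) and the MED26 stretch is chr4:787615-787735 (minus strand), on dm6, with capitals as before.
MED18: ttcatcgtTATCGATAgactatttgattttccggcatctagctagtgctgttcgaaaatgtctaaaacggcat
MED26: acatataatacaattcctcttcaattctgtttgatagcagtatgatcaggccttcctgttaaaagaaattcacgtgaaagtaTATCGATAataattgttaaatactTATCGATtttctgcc

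The MED18 peak lies in the promoter shared with Gcna. MED26, on chromosome 4, has a further TATCGAT close to its palindrome. The Zelda motif CAGGTAG, on either strand, was found at 0 of 20 Mediator and 0 of 10 Integrator summits, against 1.37% of all genes. The site of the promoter factor M1BP was found at MED20, whose peak is shared with Trf, and at IntS1. That is 1 of 20 and 1 of 10, against 3.2%. At bound summits it was found at no member, against 4.43% of all bound genes. A match describes letters in a window and does not show that a factor was there.

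Subunits that carry other symbols were looked up as well. Of the kinase module kto (MED12) had a pooled signal of 108, with 72.3 in replicate 1 and 35.2 in replicate 2, and skd (MED13) had 64.7 at a summit that lies at -406 bp and is shared with Pdss2. In the ranked lists skd had 37.7 in replicate 1 and 29.8 in replicate 2, and it passed the threshold in neither. Neither Cdk8, the kinase, nor its partner CycC was bound. Of Integrator, asun (IntS13) had 46.5, shared with bor, and passed the threshold in replicate 1 alone, while omd (IntS5) and defl (IntS7) were not bound. With these genes and ix (MED29) added, 9 of 30 Mediator genes (30%) and 4 of 14 Integrator genes (28.6%) were bound, against 17.3% of all protein-coding genes.

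Genes that work beside the complexes were bound in part. Pp2A-29B, the scaffold subunit of the phosphatase that Integrator recruits, had a pooled signal of 277 at rank 33, with 129 in replicate 1 and 140 in replicate 2, whereas mts, the catalytic subunit, had a ranked 25.4 and was not bound. Of 9 pausing and elongation genes 5 were bound (55.6%), against 17.3% of all protein-coding genes. These were CycT at 140 and Cdk9 at 41.7, the pair that forms the kinase P-TEFb, spt4 and Spt5 at 78.1 each, which form the elongation factor DSIF, and NELF-B at 47.8. Of these, CycT and spt4 passed the threshold in both replicates, Spt5 and NELF-B in replicate 1 alone and Cdk9 in neither. The replicate 1 peak that passed at NELF-B had 13.97 and was not the strongest ranked one there, which had 21.97. The pooled peaks are shared at NELF-B with CG12155, at Spt5 with Fak and at Cdk9 with bonsai. Nelf-A, Nelf-E, TH1 and Spt6 were not bound.

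For RNA polymerase II, genes were taken by symbol alone, which need not make each a core subunit. Of 13 genes whose symbol begins with Polr2, 4 were bound (30.8%, against the same 17.3%). They were Polr2J at 151, Polr2H at 91.0, Polr2C at 81.4 and Polr2D at 68.7. All 4 peaks are shared, Polr2J with CG15141, Polr2H with CG11247, Polr2C with GatC and PolG2, and Polr2D with Ada2a, Tgs1 and moi. Polr2D passed the threshold in replicate 2 alone, and the others passed in both. Of 32 genes annotated as snRNA 1 was bound (3.12%, against 17.3% of protein-coding genes). It was snRNA:7SKa at 71.3, with the summit 222 bp downstream of its start. Its RNA holds P-TEFb inactive and, like U6 and U6atac, is made by RNA polymerase III and not trimmed by Integrator. Without the 7SK, U6 and U6atac genes 0 of 26 were bound (95% exact interval 0 to 13.2%). Near-identical copies of snRNA genes make their values uncertain, since how reads with several matches were handled is not stated.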

How the data were processed

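ChIP-seq peak lists of 2 biological replicates were used, 1 group, on dm6 per the labels. The authors deposited, for each replicate and for the pool, ranked and thresholded lists with a signal, a score that follows from the IDR and is capped at 1000, and a −log10 IDR. No source used here gives the scale of the signal, the aligner or the peak caller. Signal ranked peaks within a list, and the deposited score was set against the −log10 IDR as a check. Depth is unknown, so the precision of single signals is too.

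Genes came from Ensembl release 115 (BDGP 6.54), without transposable elements, and bases from Release 6 as held by NCBI. Coordinates count from 1. For each member the strongest summit within 500 bp of any TSS was taken in each list. Named with values are all bound members, the 3 strongest and 3 weakest unbound in each complex, and those with no ranked summit. Bound genes of the related lists are named too, as are genes that share the peak of a bound gene. The unbound MED17, MED10, IntS6 and IntS9 also share their peaks, with CG12321, PDCD-5, Rtel1 and CG43295 in that order. MED16, MED20, MED22, MED23, MED24 and MED31 had ranked signals between those named. Of these, MED20 shares its peak with Trf, MED22 with CG43867, MED23 with Gmer, and MED31 with CG9775 and slx1. Scripts used python 3.11.15, numpy 2.4.6, pandas 2.3.3, scipy 1.17.1, statsmodels 0.14.6 and matplotlib 3.10.9, and the assignment was tested on simulated data. The members, modules and lists were chosen with earlier results of these data known. No test was run: intervals are 95% exact Clopper-Pearson for shares and Newcombe for the difference, for counting error only. Replicate summits near the pooled one, and snRNA genes without 7SK and U6, were looked up after the values were seen. Alternatives changed the window, list, gene assignment, motif window and replicate.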

Additional observations from a re-analysis of the deposited data

How the results depend on the processing

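Across the alternatives within the members chosen by symbol, 3 to 8 of 25 Mediator genes and 2 to 3 of 11 Integrator genes were bound, against 10.6% to 18.9% of all protein-coding genes, and the cause was not tested. The share of Mediator genes bound was 12% with each peak given to its nearest gene, the alternative that moved it most, and Integrator then stood at 18.2%. Leaving out a replicate gave 16% to 24% for Mediator and 27.3% for Integrator both times, against 12.2% of all genes without replicate 1 and 14.9% without replicate 2, and a difference of -11.3 to -3.27 points. The difference was -3.27 within 200 bp, 4.73 within 1000 bp, -2.18 for peaks at or above the median signal and -6.18 with the nearest gene, so its sign was not stable. Median ranked signal in the list of a single replicate was 13.98 to 17.5 for Mediator and 13.97 to 20.7 for Integrator, though signals of separate lists have no shared scale. The Mediator median was 19.1 with absent summits counted as 0. The palindrome share without a replicate was 27.8% to 33.3% for Mediator and 10% to 11.1% for Integrator. The sets with other symbols added and with both replicates' own lists were chosen after seeing the data. No paired analysis was possible because there is 1 group. Depth is not known, so what it limits cannot be stated.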
